A study of Mus musculus with 6 samples.

Results

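The genes described are 10 regulators that keep endogenous retroviruses and 2-cell-like genes silent, several of them through methylation of histone H3 at lysine 9 (H3K9). They were given by name as *Trim28*, *Setdb1*, *Atf7ip*, *Daxx*, *Atrx*, *Ehmt1*, *Ehmt2*, *Kdm1a*, *Chaf1a* and *Chaf1b*, a list that applies no threshold to measured values. All 10 were among the 16668 genes listed, and all 10 were among the 11538 genes that averaged 0.5 RPKM (reads scaled by exon length and by the mapped reads of the library) or more and entered the tests.

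RNA-seq was carried out on E14 mES cells, a feeder-independent mouse embryonic stem cell line of the 129/Ola strain, at passage 3-5. All groups were grown in 2i medium, which holds the inhibitors PD0325901 and CHIR99021, with LIF, and were transfected with siRNA, the control group with a control siRNA. The sample labels give 3 groups of 2 libraries, namely control (wild type), Ring1B-KD (siRNA to Ring1B, whose gene is *Rnf2*) and Dzip3-KD (siRNA to Dzip3). Both targets are ligases that attach ubiquitin to histone H2A. In 4 of the 6 libraries the file name carries a condition word other than the label, so both are stated throughout. A library is called "named" after the word in its file name and "labelled" after its sample label. In the first file set (file numbers 1 to 3), the libraries named control, Ring1B-KD and Dzip3-KD are labelled control 1, control 2 and Ring1B-KD 1. In the second file set (file numbers 4 to 6), the libraries named control, Ring1B-KD and Dzip3-KD carry the labels Ring1B-KD 2, Dzip3-KD 1 and, for the last, Dzip3-KD 2. The study calls its libraries biological duplicates, while the labels name no separate cultures, and p-values measure the spread between these libraries. Transient siRNA in a single cell line limits each knockdown group as a model, because the protein can be lost in part only.

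As background, *Trim28* (Kap1) is the corepressor that KRAB zinc finger proteins bring to retroviral DNA, where it recruits the H3K9 methyltransferase Setdb1 and its partner Atf7ip. Daxx and Atrx form a chaperone complex that places histone H3.3 at repeats, and Chaf1a and Chaf1b are subunits of CAF-1, which assembles nucleosomes behind the replication fork. Ehmt1 (GLP) and Ehmt2 (G9a) act as a pair to mono- and dimethylate H3K9, and Kdm1a (Lsd1) demethylates histone H3 at lysine 4 within the CoREST complex. In mES cells, loss of several of these factors is known to raise endogenous retroviruses and genes of the 2-cell embryo such as the *Zscan4* family.

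The targeted genes come before the regulators, as a check of names and labels. *Rnf2* stood at 30.6 and 28.8 RPKM in the libraries named control, at 20.4 and 19.4 RPKM in those named Ring1B-KD, and at 26.8 and 28.2 RPKM in those named Dzip3-KD. It was therefore lowest in the libraries named Ring1B-KD in both file sets, which are labelled control 2 and Dzip3-KD 1. By label, *Rnf2* was 25.5 ± 7.17 RPKM (SD, n = 2) in control and 27.8 ± 1.38 RPKM (SD, n = 2) in Ring1B-KD, so its level goes against the labels. *Dzip3* was 2.24 and 1.89 RPKM in the libraries named control, 2.68 and 1.70 RPKM in those named Ring1B-KD, and 1.18 and 1.31 RPKM in those named Dzip3-KD. The difference between libraries named as a knockdown and those named control was -0.55 for *Rnf2* (log2, SE 0.13, limma adjusted p = 0.232) and -0.45 for *Dzip3* (log2, SE 0.21, limma adjusted p = 0.754). Neither passed the threshold of 0.05. Against control by label, *Dzip3* differed by -0.47 in Dzip3-KD (log2, SE 0.24, limma adjusted p = 0.458). In Ring1B-KD by label it differed by -0.46 (log2, SE 0.24, limma adjusted p = 0.902). The *Dzip3* difference between Dzip3-KD and control was thus of similar size by name and by label. Between Dzip3-KD and Ring1B-KD it was -0.49 by name and -0.01 by label (log2). *Dzip3* rested on 23 to 53 reads per library. Markers of mES cells were high, with *Pou5f1* the highest and a sum over 6 of 6 listed markers of 939 to 1246 RPKM. Summed markers of fibroblasts (3 of 5 listed, 1.18 to 3.10 RPKM), primitive endoderm (5 of 5 listed, 0.888 to 2.61 RPKM) and trophectoderm (3 of 4 listed, 8.03 to 14.9 RPKM, of which *Tfap2c* gave most) were low, and their part in the results below was not tested. The depth recovered from the values was 3015349 to 3583612 mapped reads per library.

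The promoters of 3 regulators are shown because these genes mark the ends of what follows. *Trim28* had the highest level, *Atrx* the clearest difference between the file sets and *Chaf1b* the widest range over the libraries. Each sequence holds the 250 bases before the RefSeq start on GRCm38.p6, read along the gene's strand, at chr7:13023902-13024151 (plus strand) for *Trim28*, chrX:105929373-105929622 (minus strand) for *Atrx* and chr16:93883651-93883900 (plus strand) for *Chaf1b*. Capitals mark a GC box (GGGCGG on either strand) or a CCAAT box (CCAAT on either strand).
Trim28: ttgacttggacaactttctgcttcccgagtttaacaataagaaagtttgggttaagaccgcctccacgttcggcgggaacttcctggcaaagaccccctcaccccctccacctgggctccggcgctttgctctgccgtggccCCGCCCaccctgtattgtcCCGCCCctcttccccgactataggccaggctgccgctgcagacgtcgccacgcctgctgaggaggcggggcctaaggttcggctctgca
Atrx: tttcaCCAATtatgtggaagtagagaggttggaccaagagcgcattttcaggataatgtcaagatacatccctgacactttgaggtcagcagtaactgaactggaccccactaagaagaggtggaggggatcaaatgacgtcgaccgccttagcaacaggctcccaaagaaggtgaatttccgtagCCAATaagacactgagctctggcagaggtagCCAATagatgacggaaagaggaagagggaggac
Chaf1b: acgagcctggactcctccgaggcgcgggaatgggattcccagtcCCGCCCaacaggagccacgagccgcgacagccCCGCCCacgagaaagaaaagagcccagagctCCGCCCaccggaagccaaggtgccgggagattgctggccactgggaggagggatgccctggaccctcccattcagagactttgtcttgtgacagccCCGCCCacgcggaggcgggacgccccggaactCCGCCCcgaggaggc
The *Trim28* and *Chaf1b* promoters were rich in G and C (62.0% and 68.4%) with 17 and 21 CpG, and held GC boxes. The *Atrx* promoter held 48.4% G and C with 6 CpG, and carried CCAAT boxes and no GC box. Over all 10 regulators, GC boxes were found in 7 promoters, against 32.7% of the 32851 RefSeq promoter windows of the same length. CCAAT boxes were found in 6 (*Setdb1*, *Atf7ip*, *Daxx*, *Atrx*, *Kdm1a* and *Chaf1a*), against 33.8%. A TATA box (TATAAA) was found in 0 of 10, against 12.4%. An ETS-type match (CCGGAAGT) was found in *Daxx* alone, against 2.88% of windows. The E2F-type letters TTTCCCGC were in 0 of 10, against 0.895%. These matches describe the letters in the windows, and do not show that a factor bound there.

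The order of the levels was dominated by *Trim28*. RPKM is a value per exon length, so levels of different genes can be set side by side. *Trim28* averaged 130.7 ± 15.6 RPKM (SD over the 6 libraries) and held 53.1% of the summed RPKM of the 10 genes. It was higher than 99.5% of the listed genes. *Atrx* followed with 25.9 ± 6.20 RPKM and *Setdb1* with 18.5 ± 1.61 RPKM. A middle group was formed by *Chaf1a* (14.8 ± 1.68 RPKM), *Atf7ip* (13.4 ± 2.38 RPKM) and *Daxx* (13.2 ± 1.46 RPKM). *Kdm1a* averaged 9.78 ± 1.11 RPKM and *Chaf1b* 8.62 ± 2.71 RPKM. The methyltransferase pair was lowest, with *Ehmt2* at 5.76 ± 0.549 RPKM and *Ehmt1* at 5.75 ± 1.07 RPKM, both above 70.0% of the listed genes. All 10 genes were thus in the upper part of the listed genes. Of the 9 pairs of neighbours in this order, 7 had overlapping ranges over the 6 libraries. The gaps without overlap lay between *Trim28* and *Atrx* (mean log2 ratio 2.36, SD 0.22) and between *Daxx* and *Kdm1a* (0.43, SD 0.17). Some pairs with overlapping ranges still kept their order in 6 of 6 libraries. These were *Atrx* over *Setdb1* (mean log2 ratio 0.45, SD 0.28), *Setdb1* over *Chaf1a* (0.33, SD 0.12) and *Chaf1b* over *Ehmt2* (0.53, SD 0.31). *Chaf1a* was above *Atf7ip* in 4 of 6 libraries and *Kdm1a* above *Chaf1b* in 5 of 6. *Atf7ip* was above *Daxx* in 3 of 6 libraries and *Ehmt2* above *Ehmt1* in 2 of 6, so these neighbours did not differ beyond their spread.

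**Figure D1:**
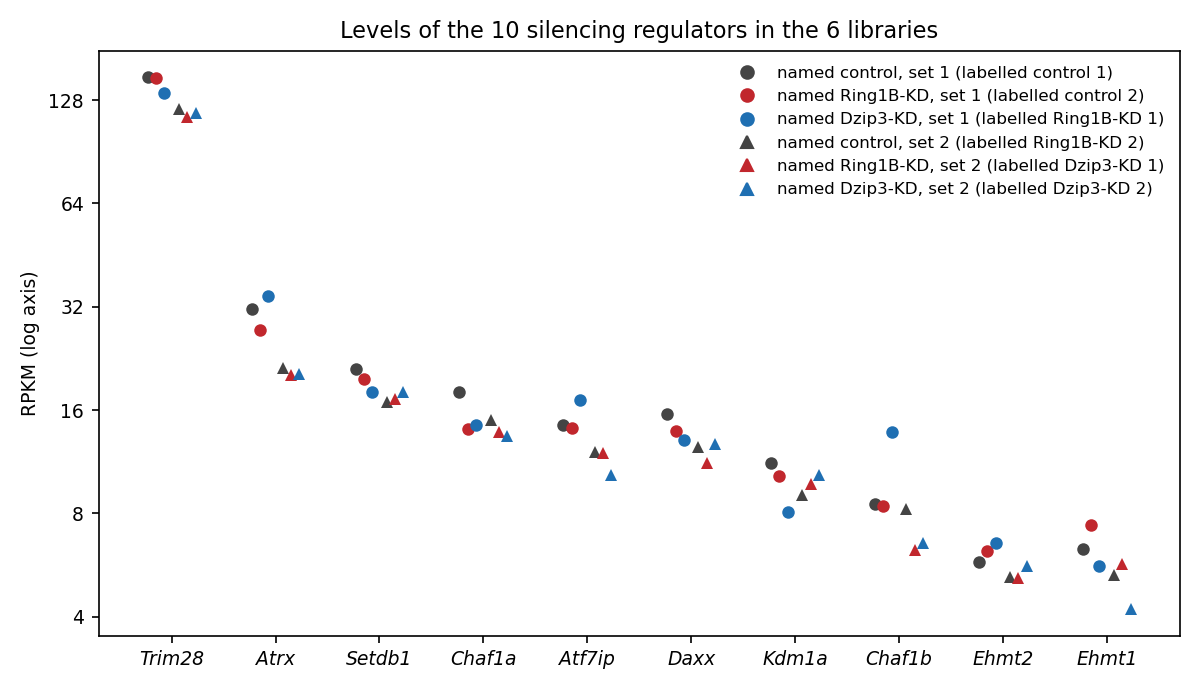
RPKM (log axis) of the 10 silencing regulators, ordered by mean level, with 1 point per library. Colours give the word in the file name, circles stand for the first file set and triangles for the second, and the key gives each sample label. *Trim28* lies above all other points in each library, and the triangles of *Atrx* lie below its circles.

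Values are given below in the order named control, Ring1B-KD and Dzip3-KD. *Trim28* measured 149.2, 148.3 and 134.4 RPKM in the first file set and 120.9, 114.1 and 117.3 RPKM in the second. All 3 values of the second set were below all 3 of the first, and the values within a set lay close together. *Setdb1*, the methyltransferase recruited by Trim28, measured 21.1, 19.8 and 18.1 RPKM in the first set and 16.9, 17.3 and 18.1 RPKM in the second. It had the narrowest range of the 10 genes, with the highest library 1.25-fold above the lowest. *Atf7ip*, which stabilises Setdb1, measured 14.5, 14.2 and 17.1 RPKM and then 12.1, 12.0 and 10.4 RPKM. Its library named Dzip3-KD was the highest in the first set and the lowest in the second. The ratio of *Trim28* to *Setdb1* varied little, from 6.49 to 7.50 over the 6 libraries.

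*Atrx*, the chromatin remodeller of the H3.3 chaperone pair, measured 31.5, 27.4 and 34.5 RPKM in the first set and 21.2, 20.3 and 20.3 RPKM in the second. The file sets did not overlap. *Daxx*, the H3.3 chaperone itself, measured 15.6, 13.9 and 13.1 RPKM and then 12.5, 11.2 and 12.7 RPKM, again without overlap. The ratio of *Atrx* to *Daxx* was 1.97 to 2.64 in the first set and 1.60 to 1.81 in the second.

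*Chaf1a*, the large subunit of CAF-1, measured 18.0, 14.1 and 14.5 RPKM in the first set and 15.0, 13.8 and 13.4 RPKM in the second. The library named control was the highest of its set both times. *Chaf1b*, the middle subunit, measured 8.49, 8.38 and 13.8 RPKM and then 8.22, 6.24 and 6.56 RPKM. The library named Dzip3-KD of the first set, labelled Ring1B-KD 1, stood apart, and the highest *Chaf1b* value was 2.21-fold the lowest. The ratio of *Chaf1a* to *Chaf1b* was 1.05 in that library and 1.68 to 2.21 in the other 5. *Chaf1b* rested on 39 to 89 reads per library, with a counting error of 16.0% in the lowest library.

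*Ehmt1* measured 6.30, 7.42 and 5.63 RPKM in the first set and 5.27, 5.69 and 4.21 RPKM in the second. In both sets it was highest in the library named Ring1B-KD and lowest in that named Dzip3-KD. *Ehmt2* measured 5.78, 6.23 and 6.55 RPKM and then 5.20, 5.19 and 5.62 RPKM, with the library named Dzip3-KD highest both times. At 69 to 90 reads per library, these *Ehmt2* values varied no more within the sets than counting allows. *Kdm1a*, the Lsd1 demethylase, measured 11.2, 10.2 and 8.06 RPKM and then 9.03, 9.75 and 10.4 RPKM. Its order in the second set was the reverse of that in the first.

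Named Ring1B-KD against named control, within file sets, none of the 10 regulators passed the test. This comparison asks whether transcripts of the silencing machinery differ when Ring1B is targeted. The differences ran from -0.22 for *Chaf1a* (log2, SE 0.14, limma adjusted p = 0.693) to 0.15 for *Ehmt1* (SE 0.16, limma adjusted p = 0.830). *Trim28* differed by -0.05 (log2, SE 0.12, limma adjusted p = 0.941), *Setdb1* by -0.03 and *Kdm1a* by -0.01. Over all genes tested, 48 passed (0.416%), all of them higher. At an unadjusted p under 0.05, 0 of 10 regulators passed, against 959 genes (8.31%). A negative difference was found for 8 of 10 regulators and for 65% of all genes. The direction was the same in both file sets for 7 of 10 regulators, against 59.2% of all genes, with 6 lower in both sets (40.6% of all genes) and 1 higher in both (18.5%). A difference of at least 1.2-fold in the same direction in both sets was seen in 0 of 10, against 12.8% of all genes. The 95% intervals lay within 2-fold of no difference for all 10 genes and within 1.5-fold for 9. The widest was that of *Chaf1b*, from -0.70 to 0.33. The median difference was -0.04 for the 10 regulators and -0.08 for all genes. It became 0.07 and 0.01 when libraries were scaled to a common 75th percentile, and then 4 rather than 8 of the 10 were negative.

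Named Dzip3-KD against named control, the 10 regulators again did not pass the test. Differences ran from -0.22 for *Chaf1a* (log2, SE 0.14, limma adjusted p = 0.792) to 0.18 for *Chaf1b* (SE 0.22, limma adjusted p = 0.904). *Ehmt1* differed by -0.20 (log2, SE 0.16, limma adjusted p = 0.832) and *Trim28* by -0.10 (SE 0.12, limma adjusted p = 0.905). With limma, 0 genes passed at all (0%), the smallest adjusted p being 0.172, and 752 had an unadjusted p under 0.05 (6.52%), none of them a regulator. With voom weights on recovered reads, 1 gene passed. The direction was the same in both file sets for 4 of 10 regulators, against 51.8% of all genes, with 3 lower in both (29.5%) and 1 higher in both (22.3%). In both sets, 0 of 10 differed by at least 1.2-fold in the same direction, against 9.59%. *Chaf1b* differed by 0.64 in the first set and by -0.29 in the second, and *Kdm1a* by -0.43 and 0.18. The intervals lay within 2-fold for all 10 genes and within 1.5-fold for 9. Both comparisons share the libraries named control, so *Chaf1a* (-0.33 and -0.11 for Ring1B-KD, -0.30 and -0.15 for Dzip3-KD, in the first and second set) is set against the same high control values in each.

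Between the libraries named Dzip3-KD and those named Ring1B-KD, *Ehmt1* differed by -0.35 (log2, SE 0.16, limma adjusted p = 0.522) and *Chaf1b* by 0.36 (SE 0.22, limma adjusted p = 0.641). The other 8 regulators lay between -0.12 and 0.16. Of all genes, 78 passed (0.676%), 8 higher (0.0693%) and 70 lower (0.607%), and 0 of the 10 regulators were among them. At an unadjusted p under 0.05 the regulators numbered 0, against 10.1% of all genes, and 4 of 10 were negative, against 41.8%.

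**Figure D2:**
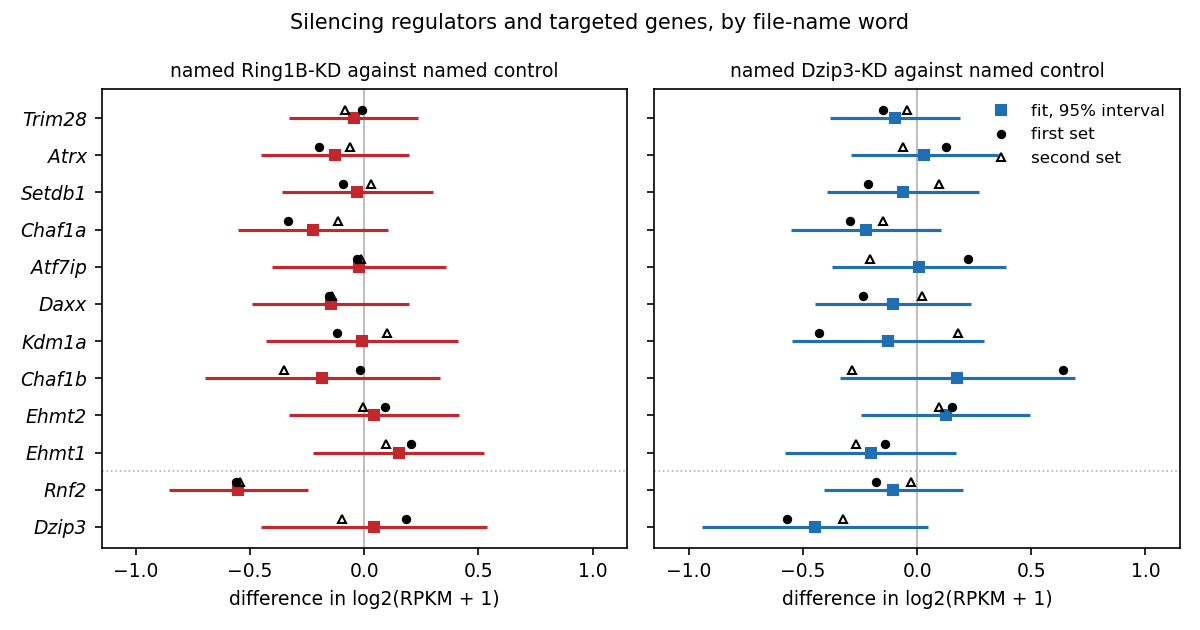
Difference in log2(RPKM + 1) against the libraries named control, for the 10 regulators and, under the dotted line, the 2 targeted genes. Squares and lines are the limma estimate with its 95% interval, black circles the first file set and open triangles the second. All intervals of the 10 regulators cross 0, while *Rnf2* lies to the left in both sets for Ring1B-KD and *Dzip3* in both sets for Dzip3-KD.

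The wider silencing machinery was described with 7 lists of partner genes, in which 0 genes passed the test in either comparison with the libraries named control (background 0.416% and 0%). Among KRAB zinc finger and Trim28 partners (14 tested), the highest level was that of *Zfp57*, which guards imprints (117 RPKM). Their median difference was -0.11 for Ring1B-KD and -0.04 for Dzip3-KD. Other H3K9 methyltransferases and Ehmt partners (9 tested), led by *Cdyl2* and *Prdm2*, had medians of -0.19 and -0.14. H3K9 demethylases (9 tested) had medians of -0.20 and -0.03, and *Kdm3a* (20.0 RPKM) and *Kdm3b* (16.6 RPKM) were their highest members. HP1 and HUSH readers (10 tested), led by the HP1 genes *Cbx1* (32.5 RPKM) and *Cbx5* (29.7 RPKM), had medians of -0.17 and 0.09. Histone chaperones and H3.3 (14 tested) had medians of -0.05 and -0.08, and were led by the H3.3 genes *H3f3b* (153 RPKM) and *H3f3a* (74.1 RPKM). Lsd1 and CoREST partners (13 tested), led by *Hdac2* (39.0 RPKM) and *Rcor2* (15.4 RPKM), had medians of -0.07 and 0.00. Other repeat silencers (12 tested), led by *Zfp42* (193 RPKM) and *Uhrf1* (56.8 RPKM), had medians of -0.16 and -0.06. The medians over all genes were -0.08 and -0.03. The largest single difference in these lists was that of *Hdac1*, a histone deacetylase of the CoREST complex, which measured 5.89, 3.70 and 6.17 RPKM in the first set and 5.22, 2.95 and 4.39 RPKM in the second. It was lowest in the library named Ring1B-KD of each set, with a difference of -0.60 (log2, SE 0.17, limma adjusted p = 0.377), which did not pass. In the other lists the largest differences for Ring1B-KD were those of *Setdb2* (-0.54), *Zfp819* (-0.44), *Pphln1* (0.37), *Phf2* (-0.36), *Dnmt1* (-0.34) and *Pcna* (-0.33). For Dzip3-KD they were those of *Pcgf6* (-0.42), *Zfp932* (-0.39), *Wiz* (0.34), *Cbx3* (-0.30), *Rreb1* (0.29), *Nasp* (0.28) and *Kdm4a* (-0.27).

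Genes that these regulators are known to silence were described with a list of 2-cell-like and germline genes, picked with results of these data known, so that its counts and direction were in view when it was chosen and are no independent evidence. Of 30 tested 2-cell-like and germline genes, 15 were higher in the libraries named Ring1B-KD than in those named control (background 0.416%) and 0 were lower, with a median difference of 1.34. The 15 were 5 *Zscan4* genes, 5 *Usp17l* genes, *Gm5662*, *Gm6763*, *BB287469*, *Tdpoz4* and *Zfp352*. The *Zscan4* and *Usp17l* genes are families of near-identical copies. Only uniquely assigned reads were used, so reads shared by copies can be lost, and the values of single copies are uncertain. Whether the *Gm* genes have such copies was not tested. *Zscan4c*, a marker of the 2-cell-like state, measured 49.1, 125.5 and 44.0 RPKM in the first set and 21.3, 101.9 and 21.0 RPKM in the second. The library named Ring1B-KD stood far above the other libraries of its set both times, and the difference was 1.77 (log2, SE 0.21, limma adjusted p = 0.016). *Usp17lb* measured 9.43, 36.1 and 12.0 RPKM and then 5.16, 23.9 and 8.33 RPKM, a difference of 1.92 (log2, limma adjusted p = 0.013). *Usp17le* had the largest difference, 2.00 (log2, limma adjusted p = 0.020). The libraries that were high are labelled control 2 and Dzip3-KD 1. Named Dzip3-KD against named control, 0 of the 30 genes passed, with a median of -0.11, and the largest difference was 0.88 for *Mael* (log2, limma adjusted p = 0.754). Against the libraries named Ring1B-KD, 18 of the 30 were lower in those named Dzip3-KD (background 0.607% lower), with a median of -1.48. This count was 6 without the library labelled Dzip3-KD 2, 10 without Ring1B-KD 1 and 12 without Dzip3-KD 1, and 0 without the filter on low values, without moderation or without the file set as a block. With voom weights on recovered reads, 18 of 27 were lower, among 107 genes lower of 10655 tested. By sample label, 0 of 30 passed in any comparison, with medians of -1.07 for Ring1B-KD and -0.64 for Dzip3-KD against control. The count of 15 fell to 1 without the library labelled Dzip3-KD 1, to 8 with a pseudocount of 0.1, and to 0 without the filter on low values, without the file set as a block, and in the model without moderation. In each of these, 29 of 30 genes had a positive difference, or 36 of 37 without the filter. With voom weights, 17 of 27 were higher in the libraries named Ring1B-KD than in those named control, among 83 genes higher of 10655 tested.

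**Figure D3:**
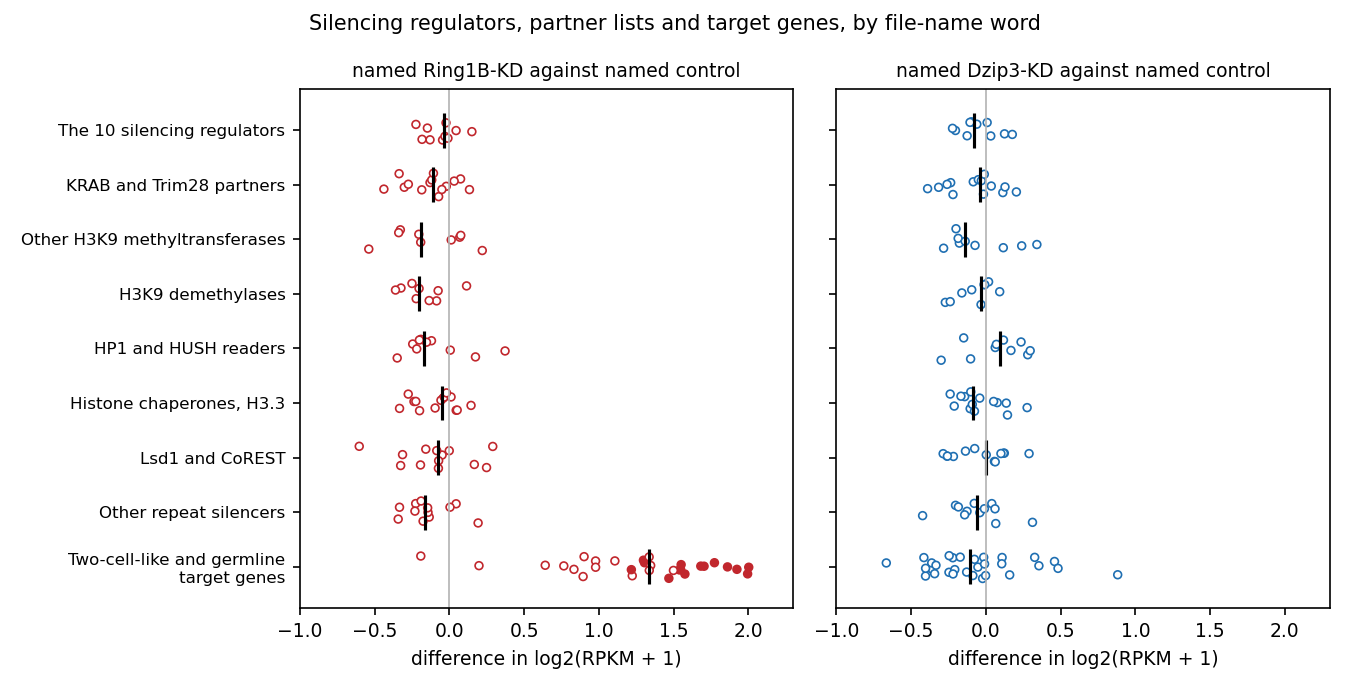
Difference in log2(RPKM + 1) against the libraries named control for the 10 regulators, 7 lists of partner genes and the list of 2-cell-like and germline target genes, with 1 point per tested gene. Filled points have a limma adjusted p under 0.05 and black bars are medians. The regulators and partners gather around 0 in both panels, and the filled points are the 15 target genes in the Ring1B-KD panel.

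Between the file sets, fitted log2 differences were larger in size than those against the libraries named control for 8 of the 10 regulators, the exceptions being *Kdm1a* and *Chaf1a*. All 10 had a lower mean RPKM in the second set (55.5% of all genes) and a negative log2 difference (55.3%). In 6 of them every library of the second set was below every library of the first (15.5% of all genes). These were *Trim28*, *Atrx*, *Atf7ip*, *Daxx*, *Ehmt2* and *Chaf1b*. *Atrx* fell from 31.1 ± 3.57 to 20.6 ± 0.538 RPKM (SD, n = 3), a difference of -0.57 (log2, SE 0.11, limma adjusted p = 0.027), and was the only one of the 10 to pass, against 3.67% of all genes lower. *Trim28* was 144 ± 8.31 and 117 ± 3.40 RPKM (log2 difference -0.29, SE 0.10, limma adjusted p = 0.115). *Atf7ip* was 15.3 ± 1.60 and 11.5 ± 0.970 RPKM (-0.38, SE 0.14, limma adjusted p = 0.123). *Chaf1b* was 10.2 ± 3.09 and 7.01 ± 1.06 RPKM (-0.46, SE 0.18, limma adjusted p = 0.156). At an unadjusted p under 0.05, 4 of the 10 passed, against 26.5% of all genes. Apart from *Atrx* these did not pass after adjustment, and neither did *Ehmt1* (-0.30), *Daxx* (-0.21), *Ehmt2* (-0.18), *Setdb1* (-0.16), *Chaf1a* (-0.13) and *Kdm1a* (-0.01). The median difference was -0.25 for the 10 regulators and -0.04 for all genes. With scaling to a common 75th percentile it was -0.20 for the regulators, and *Kdm1a* turned to 0.04. Over all genes 879 passed (7.62%), 455 higher (3.94%) and 424 lower (3.67%), or 564 and 341 with that scaling. The call of *Atrx* was lost without the filter on low values (limma adjusted p = 0.109), in the model without moderation (adjusted p = 0.26), and without any 1 of the 6 libraries (limma adjusted p = 0.0548 to 0.0854, log2 difference -0.64 to -0.48). With voom weights on recovered reads, *Trim28* (limma adjusted p = 0.0232) and *Atf7ip* (0.0303) passed as well. Of the 10655 genes in that fit, 780 passed as higher and 912 as lower, more than the 455 and 424 above.

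The spread of *Atrx* was 50.7 times that of counting over the 6 libraries and 7.39 times within the file sets, where these are ratios of variances. For *Trim28* the ratios were 19.9 and 3.10, and for *Ehmt2* 0.712 and 0.235, so *Ehmt2* varied no more than its reads allow. Among the partner lists, 6 genes passed between the file sets, all lower in the second (3.67% of all genes). They were 2 of 14 histone chaperones and H3.3, 2 of 9 H3K9 demethylases, 1 of 13 Lsd1 and CoREST partners and 1 of 12 other repeat silencers. The genes were *H3f3b* (-0.77, limma adjusted p = 0.012), the chaperone subunit *Rbbp7* (-0.74, 0.014), the demethylase-family genes *Jmjd1c* (-0.71, 0.021) and *Kdm3b* (-0.53, 0.033), *Rreb1* (-0.67, 0.035) and *Uhrf1* (-0.54, 0.026). *H3f3b* measured 209, 200 and 171 RPKM in the first set and 111, 110 and 118 RPKM in the second. Of the target genes, 13 of 30 passed as lower in the second set (3.67% of all genes), and 28 of 30 were negative, with a median of -0.59. This count was 6 without the library labelled control 1, Ring1B-KD 1 or Ring1B-KD 2, 7 without Dzip3-KD 2, and 0 without the filter or without moderation. With voom weights on recovered reads it was 16 of 27, among 912 genes lower of 10655 tested. What sets the file sets apart is not stated in the labels. Both libraries labelled control lie in the first set, while both labelled Dzip3-KD lie in the second.

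By sample label, none of the 10 regulators passed. All 10 were lower in the libraries labelled Dzip3-KD than in those labelled control (57.5% of all genes), and in 9 of 10 both libraries lay below both controls (30.3% of all genes). The differences ran from -0.51 for *Atrx* (log2, limma adjusted p = 0.414) to -0.09 for *Kdm1a*, with *Trim28* at -0.36 (SE 0.16, limma adjusted p = 0.412) and *Ehmt1* at -0.41 (limma adjusted p = 0.454). Over all genes limma called 0, with a smallest adjusted p of 0.254 and 1411 genes at an unadjusted p under 0.05 (12.2%). Both libraries labelled Dzip3-KD lie in the second file set and both labelled control in the first, so without a block this comparison also holds the difference between the sets. With the file set as a block, which only the libraries labelled Ring1B-KD inform, 6 of 10 regulators were negative and their median went from -0.31 to -0.16, and *Atf7ip* (0.13), *Atrx* (0.16), *Ehmt2* (0.15) and *Chaf1b* (0.33) turned positive. In the libraries labelled Ring1B-KD against control, 8 of 10 regulators were negative (52.8% of all genes), from -0.30 for *Kdm1a* (limma adjusted p = 0.904) to 0.31 for *Chaf1b* (limma adjusted p = 0.922). In 5 of 10 both libraries lay below both controls (18.9% of all genes). Here limma called 0 genes, and 589 had an unadjusted p under 0.05 (5.1%). Between the labels Dzip3-KD and Ring1B-KD, *Chaf1b* differed by -0.66 (log2, limma adjusted p = 0.864). It was the 1 regulator with an unadjusted p under 0.05, against 4.63% of all genes, and 8 of 10 were negative, against 54.7%.

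**Figure D4:**
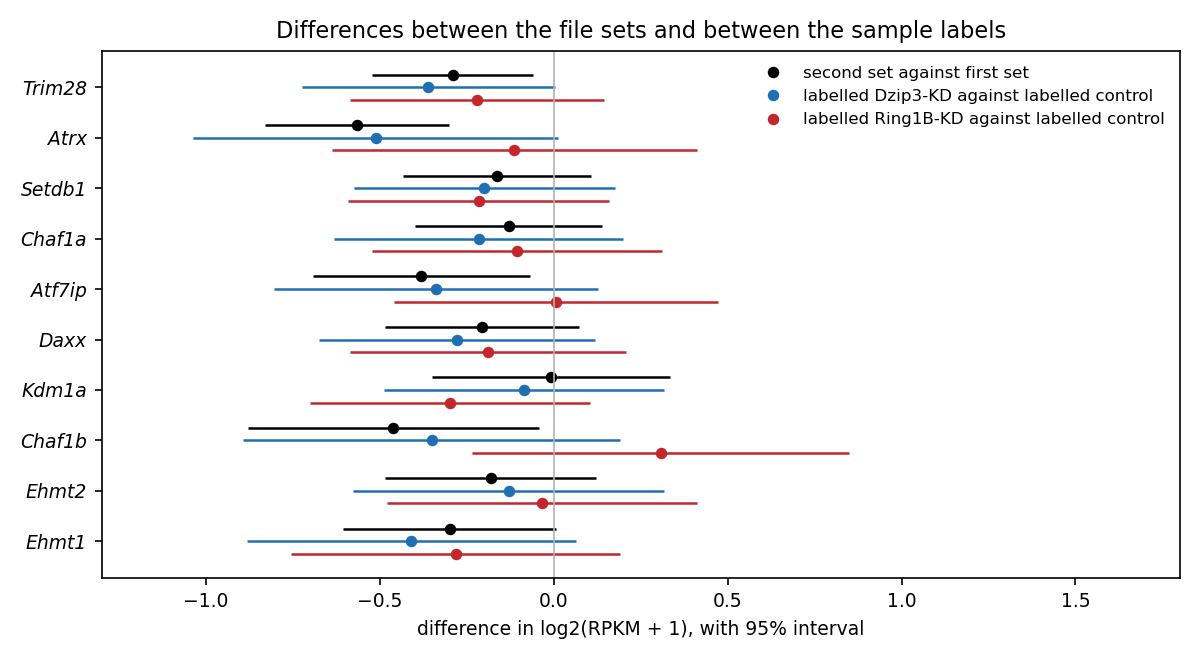
Difference in log2(RPKM + 1) with its 95% interval for the 10 regulators, between the second and the first file set (black), and between the labels Dzip3-KD (blue) or Ring1B-KD (red) and control. Black and blue points lie to the left of 0 for all 10 genes, and *Atrx* lies farthest left in both.

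Patterns over the 6 libraries were compared by Pearson's r of log2(RPKM + 1), given as a description since all genes share the libraries and their depth. Genes most like *Trim28* were *Ddx20* (r = 0.996), *Parp1* (0.996) and *Cltc* (0.995), and 143 tested genes had an r above 0.95 with it. Genes most like *Chaf1b* were *Lrch4* (0.994), *Snrpa* (0.990) and *Smc1a* (0.990), with 92 above 0.95. Among the regulators, *Atf7ip* and *Atrx* had the highest r (0.94), which was 0.72 after the means of the file sets were removed. After that removal the highest was that of *Setdb1* and *Kdm1a* (0.98). *Kdm1a* and *Chaf1b* had the lowest, -0.65 before and -0.93 after. The *Chaf1b* and *Kdm1a* values of the library named Dzip3-KD in the first set lay at opposite ends, 13.8 and 8.06 RPKM being the highest and the lowest of the 6.

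In the genome (mm9), the 10 regulators lie on 8 chromosomes. *Daxx* (34046359 to 34052534), *Ehmt2* (35035414 to 35050997) and *Chaf1a* (56179827 to 56206973) share chromosome 17, on the plus strand. *Trim28* lies on chromosome 7 (13609501 to 13616384), *Chaf1b* on chromosome 16 (93884146 to 93906360) and *Atf7ip* on chromosome 6 (136467372 to 136555898), all on the plus strand. *Setdb1* on chromosome 3 (95127447 to 95161124), *Ehmt1* on chromosome 2 (24646289 to 24775129), *Kdm1a* on chromosome 4 (136106455 to 136158638) and *Atrx* on chromosome X (102992954 to 103124736) lie on the minus strand.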

How the data were processed

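The authors deposited RPKM values, 1 list per library, from stranded mRNA libraries sequenced on a MiSeq instrument and aligned to mm9; only uniquely assigned reads were used. Annotation and versions are not given in the sources used here. RPKM corrects for exon length and total reads, not for composition. Whole reads were recovered from the steps of the RPKM values for 15525 genes (93.1%), where all 6 values lay within at most 0.08 reads of whole numbers; values under 0.001 RPKM were taken as 0. At the recovered depth, 3 reads on 2 kb correspond to 0.419 to 0.497 RPKM. The exon length used was an annotated transcript length where one gave whole numbers, and otherwise the shortest length that did. Among the regulators only *Ehmt1* matched an annotated length, and *Dzip3* did not. Read numbers and counting errors of the others thus rest on inferred lengths. Counting errors cover counting only.

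Groups were compared by linear models in limma (version 3.58.1, R 4.3.3), fitted to log2(RPKM + 1) with a variance trend and Benjamini-Hochberg adjustment, for the 11538 genes averaging 0.5 RPKM or more. This scale understates changes of low genes. The comparison by file-name word had the file set as a block; that by sample label had none. The difference between file sets was added after the data were seen. A model without moderation but with the same terms was an alternative; the study's one-way analysis of variance with its own thresholds was not repeated. The 10 genes and all lists were chosen with earlier results of these data known. Named were the 10 genes, the targeted genes, and of each list the 2 highest, those that passed (5 at most) and the largest differences against the libraries named control; among target genes, examples stand for the rest. One further gene that this rule names is not reported here. *Hdac1* values per library were added after they were seen. Replicate numbers of the labels did not pair the samples. Gene positions are from GENCODE M1 on NCBIM37 (mm9), promoters from RefSeq on GRCm38.p6, which is another build; for *Atf7ip*, which has 2 gene models, the longest was taken. All 10 genes matched a RefSeq promoter. The code was tested on simulated data.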

Additional observations from a re-analysis of the deposited data

Results flagged for a closer look

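Among the regulators, *Chaf1b* was the 1 result in which the same comparison went opposite ways in the 2 file sets by at least 1.2-fold each. The share of all genes that did so was not computed, so nothing particular to *Chaf1b* can be read from it. Named Dzip3-KD against named control, it differed by 0.64 (log2) in the first set and by -0.29 in the second, with 1 library per arm, so that the difference between the sets was not tested. The reads behind the values were 49 and 89 in the first set and 52 and 45 in the second.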

How the results depend on the processing

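Of the values given for the 10 regulators under alternatives, 581 kept direction and side of the threshold, 39 changed sign, 8 lost a call and 2 gained one. In the main fits only *Atrx* between the file sets had passed, so all 8 losses were of that call. It was lost in most of its alternatives. Counts of genes that passed stayed within 1.5 times in 57 cases and moved in 32. Most of the 57 set 0 genes against 0, in comparisons that called none. Where the main fit called genes, more counts moved than stayed. For Ring1B-KD against control by file-name word (48 genes), 21 passed when 0.1 was added before the logarithm, 86 when recovered reads were weighted by voom, and 0 without the filter, without moderation or without the file set as a block. For Dzip3-KD against Ring1B-KD by name (78), these counts were 42, 141 and 0, 0 and 0. Between file sets (879), 1692 passed with voom and 0 without the filter or without moderation. For Dzip3-KD against control by name, 1 passed with voom instead of 0. By label, 24 passed for Dzip3-KD against control in the 4 libraries compared alone. With each library left out in turn, these counts were 3 to 61 for Ring1B-KD by name (3 without the library labelled Dzip3-KD 1), 0 to 4 for Dzip3-KD by name, 26 to 172 between the knockdown names, 351 to 509 between file sets and 0 to 27 for Dzip3-KD by label. A lone library in an arm is then assumed to vary like the others. The cause was not tested.

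The replicate number as a block gave 0 genes for Ring1B-KD and 1 for Dzip3-KD against control and 0 between the knockdowns by label. Deviations of same-numbered libraries correlated at -0.04, -0.24 and 0.04, so the numbers were not used as pairs.

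With scaling to a common 75th percentile, differences by name for Ring1B-KD turned to 0.066 for *Trim28*, 0.077 for *Setdb1*, 0.082 for *Atf7ip* and 0.093 for *Kdm1a*, and that of *Kdm1a* between file sets to 0.038. With the file set as a block, differences by label turned to 0.22 for *Atrx* and 0.11 for *Ehmt2* for Ring1B-KD, and to 0.13 for *Atf7ip*, 0.16 for *Atrx*, 0.15 for *Ehmt2* and 0.33 for *Chaf1b* for Dzip3-KD. Leaving out single libraries changed the sign of differences that had not passed. By name, Ring1B-KD gave -0.11 to 0.018 for *Trim28*, -0.14 to 0.078 for *Setdb1*, -0.14 to 0.093 for *Atf7ip*, -0.22 to 0.20 for *Kdm1a* and -0.50 to 0.13 for *Chaf1b*. Dzip3-KD gave -0.18 to 0.063 for *Setdb1*, -0.21 to 0.23 for *Atf7ip*, -0.23 to 0.019 for *Daxx*, -0.094 to 0.16 for *Atrx*, -0.38 to 0.13 for *Kdm1a* and -0.20 to 0.56 for *Chaf1b*. By label, Ring1B-KD gave -0.23 to 0.24 for *Atf7ip*, -0.45 to 0.22 for *Atrx* and -0.18 to 0.11 for *Ehmt2*. It also gave -0.27 to 0.061 for *Chaf1a* and -0.033 to 0.65 for *Chaf1b*. Between file sets *Kdm1a* ran from -0.18 to 0.13. At 39 to 130 reads per library for *Chaf1b*, *Ehmt2*, *Kdm1a* and *Ehmt1*, counting alone limits what can be seen.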
